A study of Drosophila melanogaster with 2 samples.

Results

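Divergent head-to-head promoters are places where a pair of genes is transcribed away from each other from starts that lie close together. The peaks described here are the 528 of 3815 peaks on the chromosome arms (13.8%, exact 95% interval 12.8 to 14.98%) whose summit lay within 500 bp of annotated transcription start sites (TSSs) of protein-coding genes on opposite strands, with the minus-strand TSS to the left of the plus-strand TSS. The peaks came from chromatin immunoprecipitation and sequencing (ChIP-seq) of whole Drosophila melanogaster embryos aged 0 to 24 h, in a strain whose tramtrack gene product (ttk) is fused to green fluorescent protein (ttk-GFP), precipitated through the GFP tag. There was 1 group with 2 libraries, labelled biological replicates 1 and 2, and all embryos carried the tag. Whole embryos mix all tissues and stages of that window, so the cells behind a peak are not known.

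The authors' conservative list was thresholded for peaks that recur between replicates, so agreement between replicates shaped the list for every class of summit. From that list the members were chosen by position alone, with no further use of signal or sequence. They made up 33.7% of all 1567 summits that lay within 500 bp of any TSS of a protein-coding gene. Of the other summits, 1003 lay at promoters of 1 gene, 36 near several genes with no divergent arrangement, and 2248 over 500 bp from any protein-coding TSS. When overlapping peaks were counted once, 513 members were left. The 528 summits named 512 nearest gene pairs with 1023 genes, and 16 pairs held 2 summits each. There were 501 members with exactly 2 genes in the window and 27 with more. The most was 10, at pieces of mod(mdg4), a BTB factor gene with trans-spliced transcripts that the annotation lists as separate genes.

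Tramtrack, of the BTB zinc-finger family, represses transcription and is best known for holding back neuronal and other cell fates. Divergent promoters are common in the compact fly genome, mostly between broadly expressed genes, and the stretch between the paired starts is usually open and free of nucleosomes. Several fly proteins are known to bind at such promoters, among them the boundary factor BEAF-32, through the letters CGATA, and Dref, through the DNA replication-related element (DRE) TATCGATA.

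The stretches between the TSSs of 7 bound pairs are shown because the summit lay near their middle, so that each can be read from the start of one gene to the start of the other. They comprise 4 of the 12 strongest members and the strongest member at brm and Arl1, at RpL34b and at GluProRS. All are the plus strand of the dm6 genome, from RefSeq, from the base after the minus-strand TSS to the base before the plus-strand TSS. Capitals mark CGATA on either strand, so that TATCGATA, which holds the match on both strands, is capital throughout. The positions are chr3L:5139396-5139618 for Tcs5/CHMP2B, chr3R:29736746-29736964 for CG7601/CIA30, chr3R:15229409-15229664 for Art3/mRpS10 and chr3L:9426759-9427009 for Atat/Shc. Those of the others are chr3L:15982870-15983134 for brm/Arl1, chr3R:9401227-9401494 for RpL34b/CG8132 and chr3R:23958392-23958650 for GluProRS/AP-1sigma. None of these stretches overlaps an annotated exon.
Tcs5/CHMP2B: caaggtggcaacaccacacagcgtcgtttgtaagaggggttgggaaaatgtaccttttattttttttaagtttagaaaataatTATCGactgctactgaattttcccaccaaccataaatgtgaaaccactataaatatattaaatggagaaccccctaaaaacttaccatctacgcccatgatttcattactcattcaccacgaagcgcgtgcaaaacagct
CG7601/CIA30: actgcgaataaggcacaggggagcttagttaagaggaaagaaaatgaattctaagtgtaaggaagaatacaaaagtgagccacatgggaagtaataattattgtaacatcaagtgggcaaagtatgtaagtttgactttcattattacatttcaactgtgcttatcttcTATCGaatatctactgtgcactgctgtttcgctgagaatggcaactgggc
Art3/mRpS10: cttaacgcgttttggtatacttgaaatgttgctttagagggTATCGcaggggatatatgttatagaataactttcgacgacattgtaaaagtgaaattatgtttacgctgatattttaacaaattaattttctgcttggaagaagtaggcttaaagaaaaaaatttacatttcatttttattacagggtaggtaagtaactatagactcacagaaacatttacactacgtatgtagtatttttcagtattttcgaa
Atat/Shc: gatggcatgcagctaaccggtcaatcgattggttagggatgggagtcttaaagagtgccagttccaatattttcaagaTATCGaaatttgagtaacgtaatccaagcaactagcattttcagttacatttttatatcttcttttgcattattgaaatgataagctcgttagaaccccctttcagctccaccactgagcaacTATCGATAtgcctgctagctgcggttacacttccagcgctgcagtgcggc
brm/Arl1: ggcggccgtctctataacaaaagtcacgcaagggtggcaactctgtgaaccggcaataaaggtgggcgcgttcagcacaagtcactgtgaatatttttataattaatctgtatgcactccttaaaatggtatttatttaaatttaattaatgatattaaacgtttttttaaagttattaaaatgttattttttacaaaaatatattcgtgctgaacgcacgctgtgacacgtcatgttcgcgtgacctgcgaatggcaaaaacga
RpL34b/CG8132: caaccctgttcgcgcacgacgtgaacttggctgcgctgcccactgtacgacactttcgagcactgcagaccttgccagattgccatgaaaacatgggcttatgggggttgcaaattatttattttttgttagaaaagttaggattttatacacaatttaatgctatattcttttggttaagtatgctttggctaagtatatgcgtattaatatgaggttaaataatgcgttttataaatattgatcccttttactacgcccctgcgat
GluProRS/AP-1sigma: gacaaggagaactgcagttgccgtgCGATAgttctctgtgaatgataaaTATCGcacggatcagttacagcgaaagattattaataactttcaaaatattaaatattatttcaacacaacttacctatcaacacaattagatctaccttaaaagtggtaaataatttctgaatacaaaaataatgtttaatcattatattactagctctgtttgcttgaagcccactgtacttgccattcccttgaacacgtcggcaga

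In these stretches the summit lay on base 97 of 223 for Tcs5/CHMP2B, base 102 of 219 for CG7601/CIA30, base 129 of 256 for Art3/mRpS10 and base 120 of 251 for Atat/Shc. It lay on base 121 of 265 for brm/Arl1, base 114 of 268 for RpL34b/CG8132 and base 135 of 259 for GluProRS/AP-1sigma. The 51 bases centred on the summit were rich in A and T: the share of G and C was 17.6% at brm/Arl1, where the whole stretch had 36.6%, and 29.4% at Atat/Shc, where the whole stretch had 43.0%. The summit was also lower at Tcs5/CHMP2B, with 31.4% against 38.1% over the stretch, and at RpL34b/CG8132, with 29.4% against 39.2%. At CG7601/CIA30 both values were close, 37.3% at the summit and 37.9% over the stretch. They were also close at Art3/mRpS10, with 29.4% and 30.1%, and at GluProRS/AP-1sigma, with 31.4% and 34.0%. The TATCGATA match of Atat/Shc lay toward the Shc end and not at the summit. RpL34b/CG8132 and brm/Arl1 held no CGATA.

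Divergent pairs carried summits more often than the other protein-coding genes did. Of 2667 annotated divergent pairs with TSSs at most 1000 bp apart, 564 had a summit within 500 bp of both TSSs, which is 21.1% of the pairs. Over all 13968 protein-coding genes, 14.2% had a summit within 500 bp of a TSS. The share was 24.9% of the 5052 genes in a divergent pair (exact 95% interval 23.7 to 26.1%) and 8.13% of the 8916 genes in none (7.57 to 8.72%). A single summit can count for both genes of a pair, so the genes are not independent; counted per pair, 785 of the 2667 (29.4%) had a summit near at least 1 of their genes. Of these 785 pairs, 71.8% had 1 within reach of both TSSs. Intervals here and below cover counting error only. With 1 group and no second condition no test was made, and differences between classes of summits are set side by side untested. With no control library used here, binding and signal at open promoters cannot be told apart.

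The share of pairs with a summit changed with the distance between their TSSs, as the plot of pairs by spacing shows. It was 38.8% of pairs 201 to 250 bp apart (94 of 242, exact 95% interval 32.7 to 45.3%) and 33.0% of pairs 251 to 300 bp apart (99 of 300, 27.7 to 38.6%). Pairs just below that spacing had the lower share of 11.4% (17 of 149 at 151 to 200 bp, 6.79 to 17.6%). At 101 to 150 bp the share was 21.6%, at 51 to 100 bp 14.9% and at 1 to 50 bp 23.2%. The step between the spacings of 101 to 200 bp and 201 to 300 bp, at 17.4% and 35.6%, had the same direction under all 8 other settings that gave both shares, including each replicate's own peaks. At wider spacings the share went down to 30.8% at 301 to 400 bp, 21.3% at 401 to 500 bp, 11.6% at 501 to 700 bp and 2.58% at 701 to 1000 bp. Part of that is fixed by the rule, since the window within reach of both TSSs narrows as they move apart. A summit near at least 1 of the genes was found for 29.3% of pairs at 501 to 700 bp and 25.5% at 701 to 1000 bp, against 40.9% at 201 to 250 bp and 16.1% at 151 to 200 bp.

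**Figure D1:**
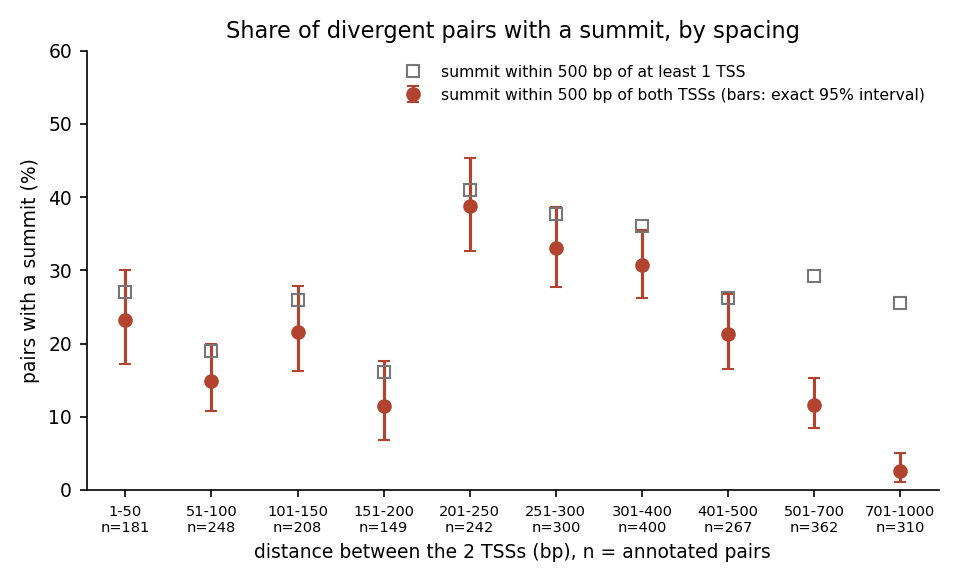
Share of annotated divergent pairs with a ttk-GFP summit (y axis, percent) by the distance between the 2 TSSs (x axis, bp, with the number of pairs). Filled circles are summits within 500 bp of both TSSs, with exact 95% intervals, and open squares are summits within 500 bp of at least 1 TSS; the filled circles stand highest at 201 to 250 bp, at 38.8%.

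Most members sat between the nearest annotated starts of their 2 genes. The summit lay between the TSSs for 434 of the 528 members (82.2%, exact 95% interval 78.7 to 85.4%), inside the minus-strand gene for 49 and inside the plus-strand gene for 45. The median distance to the midpoint of the pair was 68.2 bp (quartiles 26.4 and 116 bp), and 220 members (41.7%) lay within 50 bp of it. The summits were split between the strands: 256 summits were nearer to the minus-strand gene, 270 nearer to the plus-strand gene and 2 at the same distance from both. Summits at promoters of 1 gene also lay mostly upstream, 81.7% of them upstream of the nearest TSS at a median of 171 bp.

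Where in the pair the summit sat depended on the spacing. Of the 182 members in pairs 201 to 300 bp apart, 120 (65.9%) lay within 50 bp of the midpoint, with a median of 32 bp. In wider pairs the summit lay off the midpoint and nearer to 1 of the genes. At 401 to 500 bp the median distance was 125 bp to the midpoint, 103 bp to the nearer TSS and 353 bp to the farther TSS. The median distance to the nearer TSS stayed between 86.5 and 108.5 bp over the 4 spacings from 201 to 500 bp. In the narrowest pairs the order was the other way round, with 49 of 57 summits of pairs 1 to 100 bp apart inside 1 of the genes. Part of these differences is fixed by the spacing itself, which sets how much of the allowed window lies between the starts. Over all 94 summits inside a gene, the median spacing of the pair was 88.5 bp, and the summit lay a median of 66 bp past the near TSS and 170.5 bp from the other. The TSS used was the nearest annotated start of each gene, which shortens distances where a gene has many. A summit between the nearest starts can therefore lie inside a gene that also starts farther away, as the stronger summit at p38a/CG6178 did. With only the 5' end of each gene as its TSS, the share between the TSSs was lower, as given below.

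**Figure D2:**
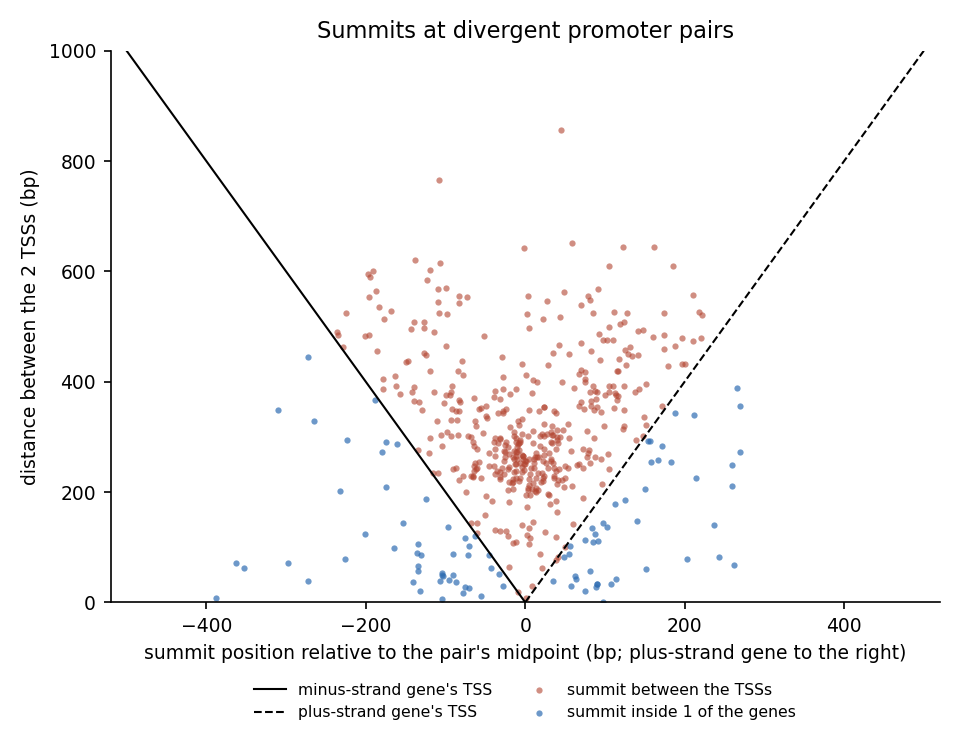
Position of each of the 528 summits relative to the midpoint of its pair (x axis, bp, plus-strand gene to the right) against the distance between the TSSs (y axis, bp). Lines mark the TSSs, red points lie between them and blue points inside 1 of the genes; points gather at the midpoint at 201 to 300 bp, fan out above, and fall outside the lines in the narrowest pairs.

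The strongest members were among the strongest peaks of the series, with 11 of the 25 strongest arm peaks and 25 of the 100 strongest. The strongest of all members lay between Tcs5, the kinase of a tRNA-modifying complex, and CHMP2B, an ESCRT membrane-sorting subunit. Its signal in the conservative list was 1639, with 753 in replicate 1 and 906 in replicate 2. Between CG7601 and CIA30, an assembly factor of respiratory complex I, the signal was 1548, with 771 in replicate 1 and 804 in replicate 2. Between Art3, an arginine methyltransferase, and mRpS10, a mitochondrial ribosomal protein, it was 1496, with 790 and 706 in replicates 1 and 2, and the summit stood 0.5 bp from the midpoint. Signal is the authors' value per peak and has no stated unit, so it ranks peaks within a list only.

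The next of the 12 strongest members were not all centred. At mRpS23, another mitochondrial ribosomal protein gene, and CenG1A, an Arf GTPase regulator, the signal was 1391 and the summit lay 105 bp from the CenG1A start and 387 bp from that of mRpS23. At CG5611 and Mtl, a Rac-like GTPase, it was 1337. Chro, a chromodomain protein of polytene interbands, and Ssl1, a TFIIH subunit, are 105 bp apart, and the summit (signal 1333) lay 82 bp inside Chro. The summit at mRpL23/CG9004 (1233), with TSSs 50 bp apart, lay 80 bp inside mRpL23. At Atat, which acetylates alpha-tubulin, and Shc, a signalling adaptor, the signal was 1230 and the replicates were less alike, with 467 in replicate 1 and 754 in replicate 2.

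The remaining 4 of the strongest members lay at tank/CG12194 (1106), Pex11ab/CG8320 (1094), Fbw5/CG9147 (1073) and Mnat9/CG1792 (961). Of these only the summit of Mnat9/CG1792 was between the TSSs, 3 bp from that of Mnat9. Pex11ab is a peroxisome protein gene, and its pair has TSSs 33 bp apart with the summit 91 bp inside CG8320. In all 12 of these members the peak was in the thresholded lists of both replicates.

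Members had higher signal than summits at promoters of 1 gene, and these in turn had higher signal than summits away from promoters. The median signal was 151 for the 528 members, 132 for the 1003 summits at promoters of 1 gene and 115 for the 2248 summits over 500 bp from a TSS. The share above the median of the whole list, 122, was 62.1% of members (exact 95% interval 57.8 to 66.3%), 53.9% at promoters of 1 gene (50.8 to 57.1%) and 45.4% away from TSSs. The top quintile of the list began at 227 and held 31.1% of members, 23.9% of the summits at promoters of 1 gene and 15.5% of those away from TSSs. The ranges overlapped widely: members ran from 2.65 to 1639, and summits at promoters of 1 gene from 2.30 to 2281. G and C content also differed between the classes. Within 100 bp of the summit members averaged 34.4% ± 7.0 (SD across summits, n = 528) and summits at promoters of 1 gene 38.0% ± 8.9 (n = 1003). Summits over 500 bp from a TSS averaged 36.8% ± 8.0 (n = 2248). Among summits at or below the list's median of 35.3% G and C, the median signal was 174 for members, 162 at promoters of 1 gene and 122 away from TSSs. Above it the medians were 126 for members, 110 at promoters of 1 gene and 106 away from TSSs. The part of base composition in the signal was not tested.

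The members were found in both replicates more often than other summits, and their median ratio of replicate 1 to replicate 2 was lower. A peak within 150 bp was present in the ranked lists of both replicates for 508 members (96.2%) and for 924 of the 1003 summits at promoters of 1 gene (92.1%). Away from TSSs it was present for 2115 of the 2248 summits (94.1%). The thresholded lists of both replicates held 348 members (65.9%, exact 95% interval 61.7 to 69.9%), against 59.0% of summits at promoters of 1 gene and 52.6% of those away from TSSs. Replicate 2 alone held 92 members and replicate 1 alone 37, whereas at promoters of 1 gene replicate 2 alone held 140 and replicate 1 alone 138. Neither thresholded list held 51 members, 133 summits at promoters of 1 gene and 456 away from TSSs. Members also had higher signal, and its part in these shares was not tested. The log2 ratio of replicate 1 to replicate 2 had a median of -0.01 over members (SD 0.48, n = 508), against 0.19 at promoters of 1 gene (SD 0.50, n = 924) and 0.18 away from TSSs. The lists of the replicates have no stated common scale, so the ratio is compared between classes only. The difference of the medians was not tested. At or below the list's median G and C content, members stood at 0.08 and promoters of 1 gene at 0.29. Above it, members stood at -0.13 and promoters of 1 gene at 0.09. The part of base composition in the ratio was not tested. With the peaks of replicate 2 alone, members were 16.2% of the arm peaks, and with those of replicate 1 alone 13.3%.

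**Figure D3:**
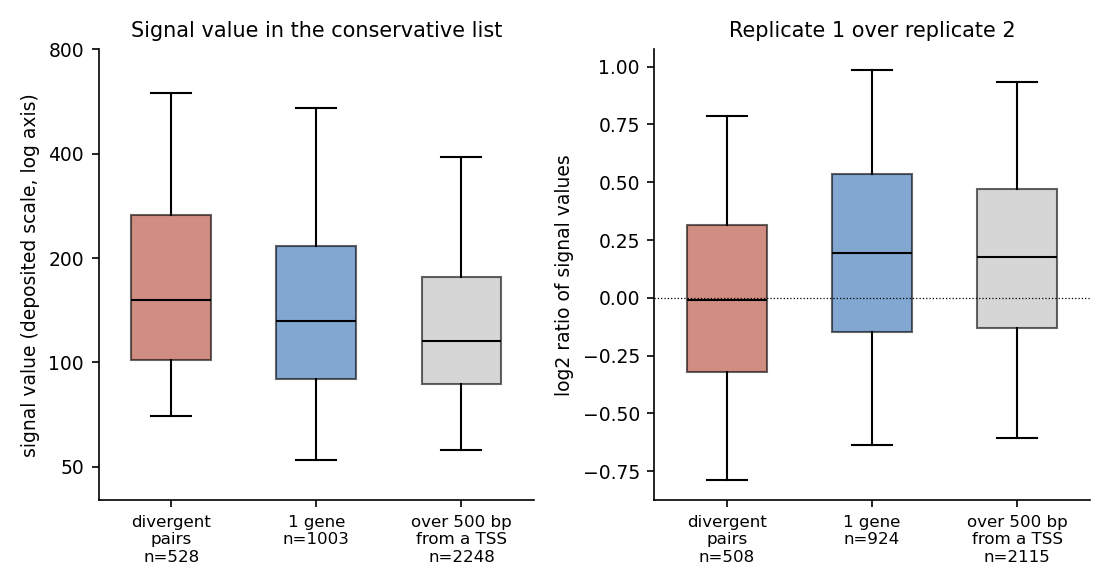
Left, signal value in the conservative list (log axis) and right, log2 ratio of the signals of replicate 1 to replicate 2, for members, summits at promoters of 1 gene and summits over 500 bp from a TSS (n under each box). Boxes show the median and quartiles and whiskers the 5th and 95th percentiles over summits; members have the highest median signal, 151, and a median ratio of -0.01.

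The members least alike between replicates ran both ways. Signal in replicate 1 was 63.4 and in replicate 2 181 at CG3104/RpS21, a log2 ratio of -1.52. The same direction held at sturkopf/Herc4, with 35.1 and 84.8 in replicates 1 and 2, and at Spase22-23/mask, with 44.4 and 105. Replicate 1 was the higher at Taf2/CalpB, where a TFIID subunit gene meets a calpain gene, with 140 in replicate 1 and 42.6 in replicate 2 (log2 ratio 1.72). It was also the higher at cnir/CG17221, with 117 and 37.1 in replicates 1 and 2, and at RpL34a/Trmt61, with 90.6 and 39.4. Over the members, 5.12% lay more than 2-fold from the median ratio of the list, close to the 4.19% of all arm peaks. The share was 4.55% at promoters of 1 gene and 3.78% away from TSSs.

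Summits at pairs with a cytoplasmic ribosomal protein gene mostly lay close to the TSS of that gene and not midway. Of 86 such genes, paired or not, 52 had a summit within 500 bp of a TSS, beside 1984 of all 13968 protein-coding genes (14.2%). Summits at these genes were thus not confined to divergent pairs. Of the 86, 53 are in a divergent pair and 26 of those (49.1%) were in a pair named by a member, beside 1023 of 5052 (20.2%) for all paired genes. With a TSS window of 250 bp the count was 13, but members of all kinds were fewer at that window. The share of all paired genes at that window is not given here. Of their 27 summits, 24 lay nearer to the ribosomal protein gene than to its partner. The median distance was 42 bp to the ribosomal protein TSS and 218 bp to the partner's TSS, and 17 of the 27 were within 50 bp of the ribosomal protein TSS, against 0 within 50 bp of the partner's. With only the 5' end of each gene as its TSS, 24 of the 27 were again nearer to the ribosomal protein gene. Summits at ribosomal protein genes with no other gene in the window lay at a median of 22 bp from the TSS, 20 of 25 within 50 bp. Ribosomal protein genes are known for high transcription in growing cells and, in flies, for a core promoter class of their own, the TCT initiator.

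The strongest ribosomal protein pair was RpS27/Nup37 (3R:25247526), where a nuclear pore gene starts 144 bp away and the summit stood 12 bp from the RpS27 TSS. Its signal was 513, with 204 in replicate 1 and 292 in replicate 2. At Ripalpha/RpL7 the signal was 451 (218 and 225 in replicates 1 and 2) and the summit lay 42 bp inside RpL7. RpL34b/CG8132 (433; 233 and 218) was a centred member, with the summit 114 bp from RpL34b and 155 bp from CG8132. The 3 summits nearer to the partner were at RpS20/CG17271, at RpL32/CG7943 and the weaker of the summits at RpL28/eIF1, with 162, 122 and 101 bp to the partner. RpL13, whose partner is Dref itself, had the summit 1 bp from its TSS and 100 bp from that of Dref, with a signal of 98.9.

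**Figure D4:**
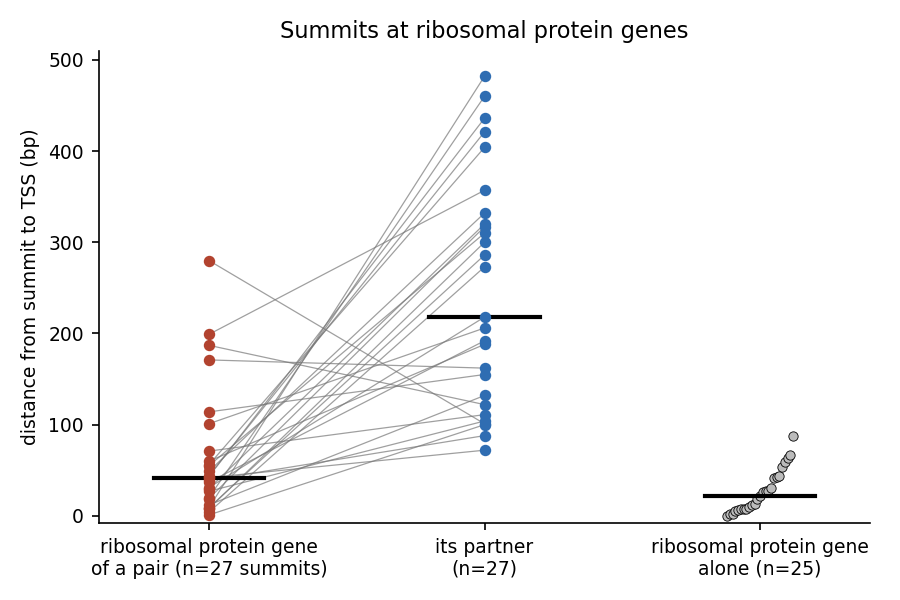
Distance from summit to TSS (y axis, bp) for the 27 summits at pairs with a cytoplasmic ribosomal protein gene, to that gene and to its partner (lines join 1 summit), and for 25 summits at ribosomal protein genes alone. Thick bars are medians, 42, 218 and 22 bp; most lines go up toward the partner.

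Mitochondrial ribosomal protein genes did not share that position. Of 75, 59 are in a divergent pair and 16 (27.1%) had a member. Their 17 summits were split, 10 nearer to the mitochondrial gene and 7 nearer to the partner, at medians of 128 and 140 bp. They include 3 of the 12 strongest members, at mRpS10, mRpS23 and mRpL23. Their median signal per gene was 134, beside 157 for all genes in a bound pair.

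Shares in the other groups of genes for basic cell functions ran from 13.3% for translation factors to 43.8% for autophagy genes, beside the 20.2% of all paired genes. For splicing and RNA processing 17 of 55 paired genes were in a pair named by a member, led by IntS11 and IntS6, subunits of the Integrator RNA-cleaving complex (377 and 260), and CstF64, a cleavage-stimulation factor (212). Mediator, TFIID and polymerase subunits had 13 of 50, led by Taf5 (477), Polr2H (367) and MED27 (291). Respiratory chain genes had 13 of 48, the strongest being ND-ASHI, a complex I subunit paired with Fum1, a fumarase of the citric acid cycle (357). Aminoacyl-tRNA synthetases, which load tRNAs, had 6 of 23, with GluProRS (409), IleRS (350) and SerRS (339).

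Nuclear pore genes had 8 of 20, led by Nup37 (513), Nup98-96 (213) and Nup160 (169), and autophagy genes 7 of 16, with Atg2 (331), Atg7 (279) and Atg17 (210). Both shares rest on few genes, and the nuclear pore count was 5 when only the list of replicate 1 was used, against 8 in the conservative list. Vesicle trafficking genes had 20 of 83, with the small GTPase gene Arl1 (796), which is paired with brm, the ATPase of the SWI/SNF chromatin remodeller, alphaCOP, a COPI coat subunit (493), and AP-1sigma, a clathrin adaptor subunit (409). DNA replication and repair genes had 8 of 41, led by PolD2 (515), a DNA polymerase delta subunit, mei-41 (447), the fly ATR kinase, and mus312 (194). Proteasome genes had 5 of 26 (Rpn3, 136, the strongest), cell cycle genes 5 of 32 (Cdc16, 335) and translation factors 4 of 30 (eIF1, 187). With the peaks of replicate 1 alone, the count was 5 for DNA replication and repair genes and 1 for proteasome genes. The share of all divergent pairs with a summit was also lower with the list of either replicate alone, as given below.

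Of 25 genes for BTB and insulator factors, 9 had a summit within 500 bp of a TSS. Of the 25, 8 are in a divergent pair and 4 of the 8 had a member, beside 20.2% of all paired genes. These were Chro (1333), Cp190 (467), whose protein binds with several insulator factors, M1BP (156), which binds core promoter motif 1, and Dref (98.9). At Cp190/CG4338 the replicates gave 267 in replicate 1 and 190 in replicate 2. Genes for tissue-restricted products were seldom in divergent pairs, beside 36.2% of all protein-coding genes. Paired were 13 of 122 cuticle protein genes, 26 of 179 chemoreceptor genes and 7 of 54 neuronal adhesion genes. None of the 27 Hox and segmentation genes is in such a pair, though 5 of them had a summit within 500 bp of a TSS. None of the 13 paired cuticle protein genes had a member. Of 26 paired chemoreceptor genes 1 had a member, Ir60e (79.0), with the summit 9 bp from its partner CG13585. Of 7 paired neuronal adhesion genes 1 did, dpr14 (306), with the summit 200 bp from its partner spidey and 445 bp from dpr14. A pair with both genes in the same list occurred once among the members, at Rrp5/Dis3 (91.8), both of which process ribosomal RNA.

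About the summit, the shares of members with CGATA and TATCGATA were close to those of divergent pairs with no summit. With both sets centred on the midpoint, the shares of pairs with a summit stood lower. Within 100 bp of the summit CGATA, searched as CGATA and TATCG, occurred in 43.0% of members, 29.7% of summits at promoters of 1 gene and 20.1% of summits away from TSSs. The same width about the midpoint of divergent pairs with no summit had it in 42.3%, and windows centred 100 bp upstream of all protein-coding genes in 38.4%. TATCGATA, which reads the same on both strands and contains CGATA, was in 9.09% of members, 9.03% of pairs with no summit and 7.37% of all promoters. Centred on the midpoint in both sets, CGATA was in 37.4% of the 564 pairs with a summit (exact 95% interval 33.4 to 41.6%) and 42.3% of the pairs without, and TATCGATA in 6.74% (4.81 to 9.13%) and 9.03%. Median spacing was 272 bp in pairs with a summit and 317 bp in pairs without. The order of these shares was the other way for both motifs in the pairs of like spacing below. The part of spacing in the shares was not tested. Members with CGATA had a median signal of 142 and members without it 159. The GAGA factor core, GAGAG or CTCTC, was in 14.0% of members and in 14.6% of pairs with no summit, against 26.3% of summits at promoters of 1 gene. A match to letters is not a bound site.

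Pairs of like spacing with and without a summit were compared for letters and base composition. Of pairs 201 to 300 bp apart, 45.6% of the 193 with a summit and 42.1% of the 349 without held CGATA within 100 bp of the midpoint (exact 95% intervals 38.4 to 52.9% and 36.9 to 47.5%). In both sets the matches lay toward the TSSs and away from the middle: per 100 pairs there were 36.3 with a summit and 38.4 without in the 40 bp from -120 bp, 40.4 and 42.7 in those from 80 bp, and 5.2 and 7.7 in those from -40 bp. Other bins had the opposite order, with 23.3 with a summit and 17.8 without from -160 bp, and 24.4 and 16.6 from 120 bp. From 0 bp there were 5.7 and 4.9. At the same spacing, TATCGATA lay within 100 bp of the midpoint in 10.4% of pairs with a summit and 8.31% of pairs without. The exact 95% intervals were 6.45 to 15.6% and 5.64 to 11.7%. For both motifs the intervals overlapped, and the differences were not tested. The 51 bases at the midpoint held 24.6% ± 8.3 G and C in pairs with a summit (SD across pairs, n = 193) and 28.2% ± 10.7 in pairs without (n = 349). The difference of the means was not tested.

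**Figure D5:**
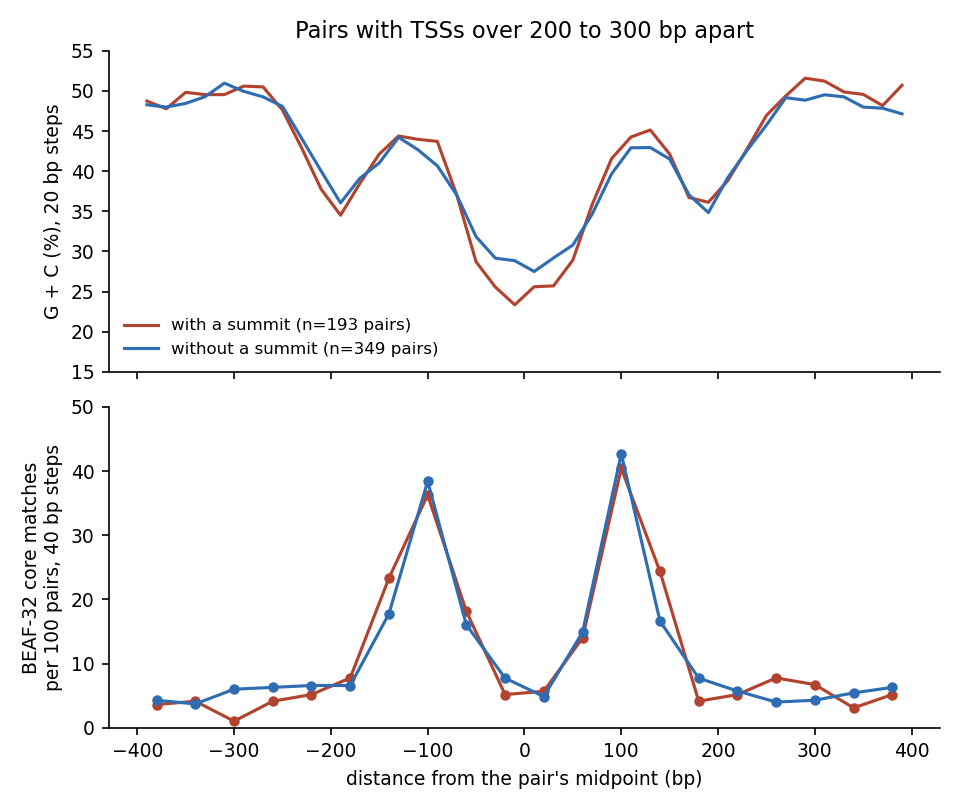
Share of G and C (top, percent) and matches to the BEAF-32 core on either strand per 100 pairs (bottom) by distance from the midpoint (x axis, bp), for pairs 201 to 300 bp apart with a summit (red, n = 193) and without (blue, n = 349). Both sets have a trough of G and C in the middle and matches in the bins by the TSSs; the 51 bases at the midpoint held 24.6% and 28.2% G and C.

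For the letters reported for tramtrack itself, the order of the sets differed between sites. AGGAC or GTCCT, the core of the site given for the 69 kDa isoform, was in 8.33% of members, 8.37% of summits at promoters of 1 gene, 9.13% of pairs with no summit and 11.1% of all promoters. GGTCCT or AGGACC was in 1.14% of members and 2.51% of all promoters. AGGGNGG or CCNCCCT, given for the 88 kDa isoform, was in 3.98% of members (exact 95% interval 2.48 to 6.02%), above the 2.09% of pairs with no summit (1.52 to 2.80%) and 3.19% of all promoters, and below the 5.38% at promoters of 1 gene and 6.54% of summits away from TSSs. About the midpoint of pairs with a summit it was in 2.30% (1.23 to 3.91%). TATAAA or TTTATA was in 43.2% of members. About the midpoint it was in 45.4% of pairs with a summit (41.2 to 49.6%) and 38.3% of pairs without (36.2 to 40.4%). Runs of 6 A or T were in 45.5% of members, and about the midpoint in 51.95% of pairs with a summit (47.7 to 56.1%) and 45.5% of pairs without (43.4 to 47.7%). For pairs 201 to 300 bp apart the shares with such runs were 50.3% with a summit and 43.6% without. GGTCACAC or GTGTGACC was in 4.36% of members and 5.85% of pairs with no summit, and CAGCTG in 13.8% and 12.8%. Other forms of these motifs were not searched.

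By chromosome arm, divergent pairs on the X had the lowest share with a summit among the 5 large arms. The share of pairs with a summit was 13.2% on the X (53 of 403, exact 95% interval 10.01 to 16.8%), against 20.4% on 2L, 21.2% on 2R, 24.5% on 3L and 24.2% on 3R. None of the 11 pairs on chromosome 4 had a summit, for which the exact 95% interval reaches 28.5%. Members were 6.52% of the 767 peaks on the X and between 14.6 and 17.3% of those on the 4 large autosome arms. The X members had a median signal of 134, beside medians of 135 to 169 on the large autosome arms.

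At the edges of the rule, the members just inside 500 bp were CG14968/ZnT63C, 495 bp from the farther TSS with a signal of 456, and CG31650/CG33995, also at 495 bp, with 97.4. The peaks just outside were Mpc1/CG42613, at 501 bp with a signal of 89.1, and CCT8/CG30349, at 505 bp with 105. The weakest members were CG8950/Mov10 (2.65), CG43325/CG13510 (5.44) and a second summit at Csl4/Nup160 (6.06), and none of these 3 had a matching summit within 150 bp in either replicate's ranked list. The peak of the second Csl4/Nup160 summit nevertheless overlapped peaks in the thresholded lists of both replicates, and that of CG8950/Mov10 a peak of replicate 2. The strongest pairs with more than 1 summit had a strong and a weak one: p38a/CG6178 had 430 and 24.9, Fur1/Vps33B 317 and 53.9, and RpL28/eIF1 187 and 50.9. Both summits at Fur1/Vps33B matched the same peak of replicate 1 (160) and none of replicate 2, so they do not count as separate sites in that library.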

How the data were processed

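Per the labels, chromatin of whole ttk-GFP embryos was sonicated and precipitated through GFP, although the antibody field names ttk. The deposited files are IDR (irreproducible discovery rate) peak lists in dm6 coordinates. The aligner and the caller of peaks were not given in the sources used here. Each deposited signal value is the authors' own per peak, with an unstated normalization. The deposited score is the authors' scaled IDR value, from 830 to 1000 in the conservative list, and chose no peak here. The files give no counts, so depth is unknown, and 2 libraries limit precision. Nothing in the labels beyond the words biological replicate tells how the libraries were separated.

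Peaks on the arms were classified by summit against all transcript starts of protein-coding genes (Ensembl BDGP6, release 115). A replicate's signal was that of its nearest ranked summit within 150 bp, and thresholded lists were matched at 1 bp overlap. Motifs were searched on both strands within 100 bp. Sequence came from RefSeq release 6. There is 1 group, so no test was run. Intervals are exact binomial (Clopper-Pearson). Named were the pairs of the 12 strongest members, up to 3 genes a list with the strongest summit, same-list pairs, the weakest members, those at the 500 bp limit, pairs with several summits and the most unequal replicates. The pieces of mod(mdg4), the PIG-M/NC2alpha pair, RpS20, RpL32 and RpL13/Dref were named after their values were seen, as were brm/Arl1, RpL34b/CG8132 and GluProRS/AP-1sigma among the stretches shown. The members, motifs and 18 gene lists were chosen with earlier results of these data known. The matched-spacing comparison, the distances within ribosomal protein pairs and the division by base composition were added after the data were seen. The classification was tested on simulated data. Alternatives were other peak lists, windows, TSS definitions, overlaps and each replicate alone. Scripts ran in Python 3.11.15 with scipy 1.17.1, pandas 2.3.3, numpy 2.4.6 and, for figures, matplotlib 3.10.9.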

Additional observations from a re-analysis of the deposited data

How the results depend on the processing

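With the larger list the values were 12.15% of arm peaks, 22.91% of pairs, 68.25% above the list's median signal and 61.05% in both thresholded lists. With the stronger part of the conservative list, cut at its median, they were 328 members, 17.19% of arm peaks, 13.61% of pairs, 24.17% of pairs 201 to 300 bp apart, 58.5 bp to the midpoint and 91.16% in both thresholded lists. A TSS window of 250 bp gave 322 members, 8.44% of arm peaks, 13.46% of pairs, 31.55% of pairs 201 to 300 bp apart, 34.75 bp to the midpoint, 66.77% above the median and 13 ribosomal protein genes. A window of 1000 bp gave 18.03% of arm peaks, 25.65% of pairs and 91.5 bp. Gene 5' ends alone gave 12.29% of arm peaks and 77.19% between the TSSs. Pairs up to 500 bp apart had a summit in 25.76%, and an overlap of at least 50% of the peak left 61.55% in both lists. TATCGATA was in 3.03% of members within 50 bp and 17.42% within 200 bp. With only the list of 1 replicate, the values ran from 13.31 to 16.23% of arm peaks, 16.84 to 19.69% of pairs and 28.97 to 32.29% of pairs 201 to 300 bp apart. These windows and lists differ in size by construction; beyond that the cause was not tested. The other 53 summary values computed under these alternatives stayed within their interval, or within 1.5 times the count, and members kept the higher share above the list's median signal, against promoters of 1 gene, under all 8 alternatives that gave both. Of 266 values for single motifs, lists and classes, 50 moved further. No paired analysis was possible because there is only 1 group. The signal has no stated scale and no control library was used, so weak members cannot be told from background.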

Other observations

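Starts of non-coding genes were uncommon at the members. An ncRNA gene started within 500 bp of the summit at 8 of 528 members (1.52%) and at 50 of 1003 summits at promoters of 1 gene (4.99%). For tRNA genes the counts were 0 members and 7 summits at promoters of 1 gene, and for snoRNA genes 2 members and 4 summits at promoters of 1 gene.

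Several members with more than 2 genes in the window lie at gene clusters. The summit between PIG-M, an enzyme of the GPI-anchor pathway, and NC2alpha, a subunit of a TBP-binding repressor, had a signal of 363 and 5 protein-coding genes within 500 bp, among them CG42379, CG42380 and CG42381. The summit at the pieces of mod(mdg4) (3R:21365313-21365656) had a signal of 252 and 10 such genes, all of that locus.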
